A study of Mus musculus with 6 samples.

Results

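The genes described here are 120 genes of mouse red cell progenitors whose RNA was lower with dexamethasone than without it and lower again when GW7647 was added. They were chosen from the measured values themselves, out of 37620 genes in the tables. A gene was taken if it had at least 1 CPM in untreated cells, a ratio of Dex to untreated of at most 0.5, and a ratio of Dex plus GW7647 to Dex of at most 0.67. CPM is a gene's count scaled to a library total of 1000000, with 0.1 CPM added before the 2 libraries of a group were averaged, and all ratios below are of these means. By name, 12 genes of platelets, granulocytes and mast cells were left out: Pf4, Ppbp, Mpo, Elane, Prtn3, Cma1, Tpsb2, Tpsg1, Mcpt8, Cpa3, Lyz2 and S100a8. All values in these ratios were used to choose the genes, so they are given as a description, with no test. Values with ± are means and SD over the 2 libraries of a group (n = 2).

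The cells, known as BFU-E for the bursts of red cell colonies they form, are early committed erythroid progenitors and came from E14.5 fetal livers of 129/SvImJ mice. Cells positive for lineage markers, Sca-1, CD16/32, CD41 or CD34 were removed, and c-kit positive cells with the 10% lowest CD71 were sorted. Every group was kept in the same serum-free medium with erythropoietin at 2 U/mL, IGF-1 at 40 ng/mL and stem cell factor at 100 ng/mL. The groups were cells with 100 nM dexamethasone plus 10 µM GW7647, cells with 100 nM dexamethasone alone (Dex), and untreated cells in medium alone, with 2 libraries each. For both groups with drugs the labels give 12 h of treatment, whereas the header of a deposited table carries 36 h. They give no time in culture for the untreated cells. Effects of Dex and of time in culture therefore cannot be told apart in the ratios of Dex to untreated. No group had GW7647 alone, so its effect is known only on top of Dex. The labels do not say whether libraries of a group came from separate litters or cultures, so p-values measure only the spread between these libraries.

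Dexamethasone is a synthetic ligand of the glucocorticoid receptor, a nuclear receptor that both activates and represses genes and that, in BFU-E, is known for favouring self-renewal over maturation. GW7647 is a ligand of the nuclear receptor PPARα, which is best known for inducing genes of fatty acid oxidation. Red cells, platelets, granulocytes, mast cells and macrophages descend from shared progenitors, and early progenitors can carry low levels of transcripts typical of several of these lineages. By known role, 14 of the 120 genes are grouped here as platelet and megakaryocyte genes, 10 as granule and defence proteins, 14 as myeloid surface and signalling proteins and 6 as lymphoid genes.

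The libraries held 46716806 and 35970286 counts for Dex plus GW7647, 54174801 and 45058773 for Dex, and 37577414 and 39791302 for untreated cells. The mitochondrial share of counts ran from 2.46% to 2.88% except in Dex replicate 1, where it was 1.72%. Kit, the receptor that the sort selected on, stood at 303 CPM in both Dex plus GW7647 libraries, 303 and 299 CPM in Dex and 92.9 and 93.7 CPM in untreated cells. Gata1, the lineage's main transcription factor, had 246 and 244 CPM with Dex plus GW7647, 255 and 242 CPM with Dex, and 250 and 269 CPM without treatment. Ppara, which encodes the receptor for GW7647, had at most 0.0251 CPM in any library, while its known target Cpt1a had 140 and 132 CPM with Dex plus GW7647, 47.2 and 47.4 CPM with Dex, and 54.3 and 54.0 CPM in untreated cells. None of the 20 erythroid markers examined was among the 120 genes, and with 120 genes out of 14125 tested, nothing is read from this. The summed level of these markers was 27122 and 27223 CPM with Dex plus GW7647 and between 27046 and 27521 CPM with Dex. In untreated cells it was between 50323 and 52630 CPM. With Dex against untreated, 15 markers were lower and 3 higher (edgeR quasi-likelihood test, Benjamini-Hochberg adjusted p under 0.05), where 26.0% and 25.5% of all tested genes were. With Dex plus GW7647 against Dex, 0 were lower and 2 higher, where 7.58% and 2.15% were. DESeq2, a further count test, gave 1 lower and 2 higher there.

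Summed over the 120 genes, expression was 347 and 337 CPM with Dex plus GW7647, 579 and 563 CPM with Dex, and 1392 and 1446 CPM in untreated cells. Single genes were mostly of low level, with a median of 0.795 CPM with Dex plus GW7647, 1.38 CPM with Dex and 4.06 CPM in untreated cells. In untreated cells 30 of them reached 10 CPM and 72 were under 5 CPM. Per kilobase of annotated exon length, their median level in untreated cells was 1.45 CPM per kb, against 5.05 CPM per kb over all genes tested. The median ratio of Dex plus GW7647 to Dex was 0.578, with a range from 0.295 to 0.669, and the median ratio of Dex to untreated was 0.386, with a range from 0.0892 to 0.497. Across both steps, levels with Dex plus GW7647 were between 3.10-fold and 18.7-fold below untreated, with a median of 4.56-fold, and 46 genes were at least 5-fold below. In these RNA extracts of whole cultures, fewer cells carrying a transcript and less of it per cell cannot be told apart.

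**Figure D1:**
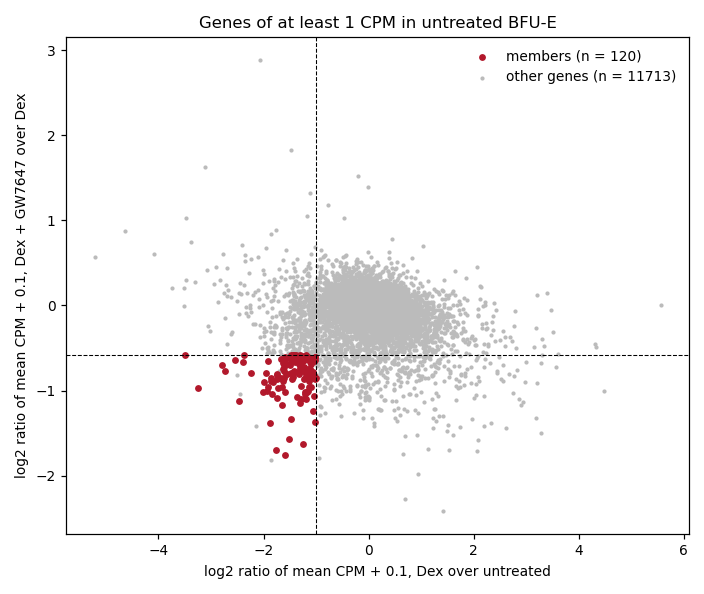
Each point is a gene with at least 1 CPM in untreated BFU-E (11833 genes), placed by the log2 ratio of Dex to untreated on the horizontal axis and of Dex plus GW7647 to Dex on the vertical axis, both of mean CPM + 0.1. The 120 genes in red fill the lower left corner that the dashed cuts at ratios of 0.5 and 0.67 define, and since the Dex libraries enter both axes, the slope of the cloud is no result.

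Of the 11833 genes that reached 1 CPM, 595 also met the first ratio, and 125 of these met the second. Among the 595, the median ratio of Dex plus GW7647 to Dex was 0.863, against 1 over all 11833. In all 120 genes both Dex plus GW7647 libraries lay below both Dex libraries, and both Dex libraries lay below both untreated libraries. The same holds for 28.9% of the 14125 genes tested at the first of these steps, for 25.4% at the second and for 7.70% at both. In edgeR's quasi-likelihood fit over all genes, 71 of the 120 were called lower with Dex plus GW7647 than with Dex, where 7.58% of all genes were. All 120 were called lower with Dex than without, where 26.0% were, and lower with both drugs than without, where 25.1% were. Calls in either direction covered 9.73% of the tested genes with Dex plus GW7647 against Dex, 51.6% with Dex against untreated and 49.7% with both drugs against untreated. These comparisons chose the genes, so nothing is read from the counts. Nor does an absence of overlap, where given below for single genes, set any of the 120 apart from the rest. With either library of Dex plus GW7647 left out, fewer genes were called against Dex, both among the 120 and over all genes.

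The choice of genes has sharp edges in a continuous range. Epha4 and 2610528J11Rik were just inside the floor with 1.09 and 1.18 in untreated cells (CPM + 0.1), while Plpp7 and Clec7a were just outside with 0.991 and 0.861. Esrp2 and Hacd4 were just inside the Dex to untreated ratio with 0.495 and 0.497, and Tyrobp and Tnfsf14 just outside with 0.501 and 0.502. Ldlrad4 and Gbx2 were just inside the ratio of Dex plus GW7647 to Dex with 0.669 each, and Prkcb and Rassf4 just outside with 0.671 each. With any single library left out, between 108 and 126 genes met the cuts, and 53 of the 120 met them in every case.

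**Figure D2:**
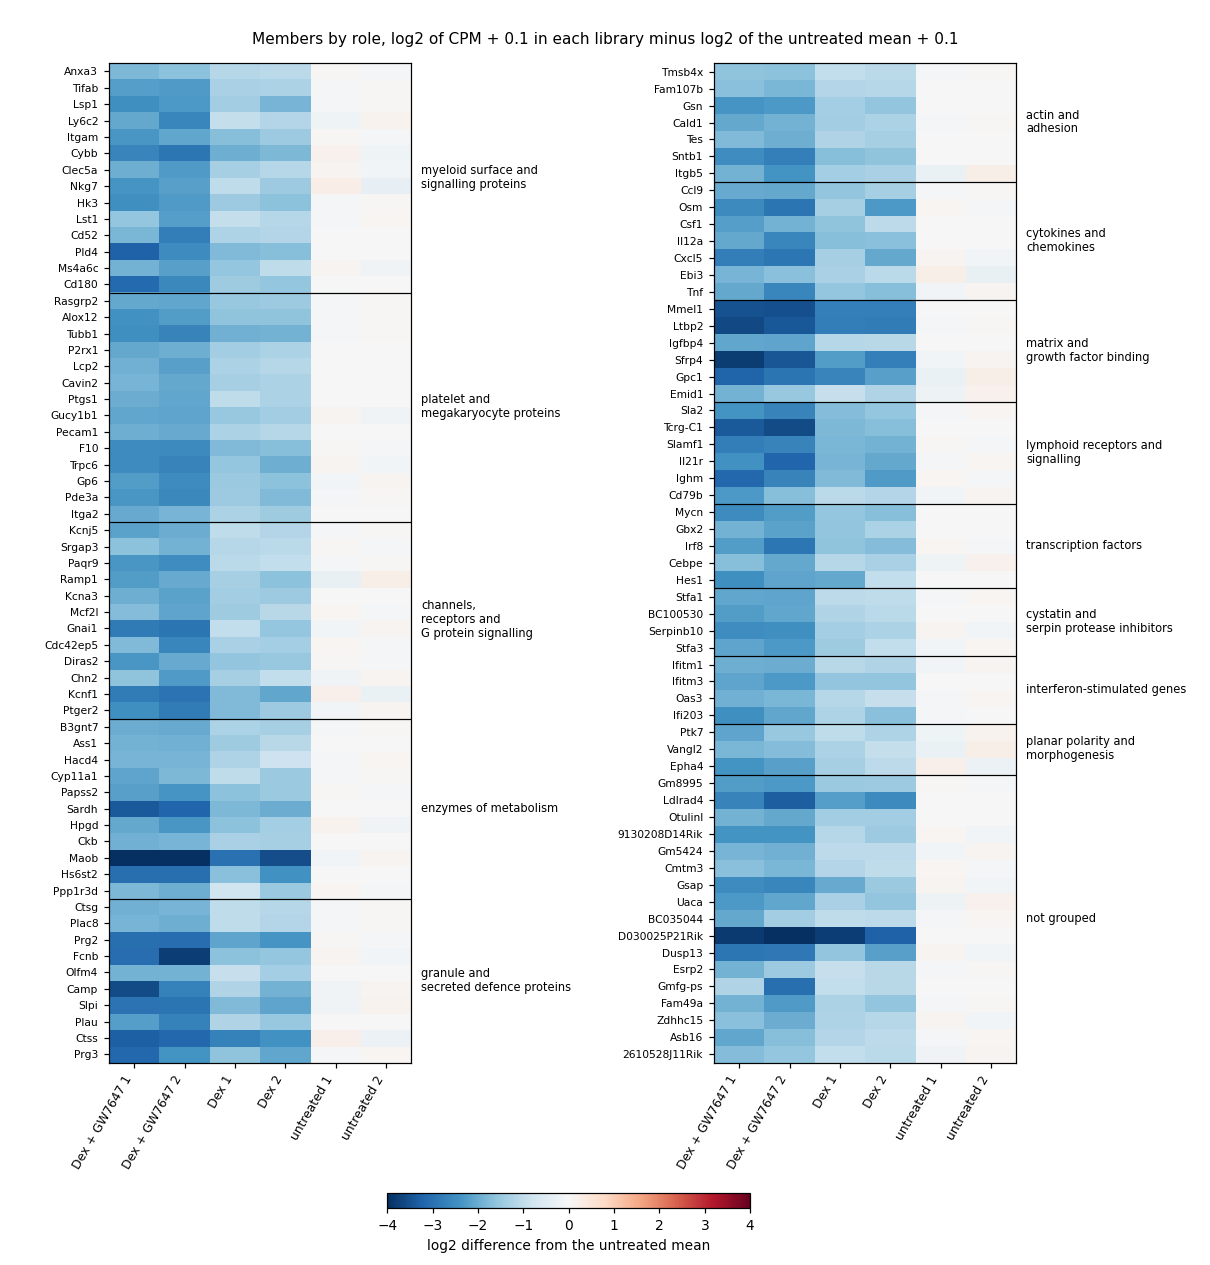
Rows are the 120 genes grouped by known role and columns are the 6 libraries, with Dex plus GW7647 on the left. Colour gives log2 of CPM + 0.1 minus log2 of the untreated mean + 0.1 (blue lower, on a scale from −4 to 4), and every row is darkest with Dex plus GW7647, paler with Dex and palest in untreated cells, as the choice of genes requires.

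Grouping by known function was done after the values had been seen. Per kilobase of annotated exon length, the gene with the highest level in untreated cells was Tmsb4x, at 323 CPM per kb, ahead of Stfa1 at 36.5 and Ctsg at 33.9 CPM per kb. Tmsb4x encodes thymosin beta 4, a small protein that binds actin monomers. Tmsb4x had 145 and 141 CPM with Dex plus GW7647, 223 and 211 CPM with Dex, and 427 and 458 CPM without treatment. The sum of the other genes without it was 202 and 196 CPM with Dex plus GW7647, 356 and 351 CPM with Dex, and 964 and 988 CPM without treatment. Its groups did not overlap, and its total difference was the smallest of the 120, 3.1-fold below untreated with both drugs, with ratios of 0.658 for Dex plus GW7647 to Dex and 0.491 for Dex to untreated. Near-identical processed copies of Tmsb4x exist, so its count depends on how the authors treated reads that map more than once. The 7 genes of actin and adhesion had a median ratio of 0.641 for Dex plus GW7647 to Dex and 0.402 for Dex to untreated. Gsn, which encodes the actin-severing protein gelsolin, had 3.68 and 3.86 CPM with Dex plus GW7647, 7.48 and 6.41 CPM with Dex, and 19.4 and 19.3 CPM in untreated libraries. Its mean with both drugs was 5.03-fold below the untreated mean. Cald1, the actin-binding caldesmon, had 1.95 and 2.17 CPM with Dex plus GW7647, 3.12 and 3.42 CPM with Dex, and 8.04 and 8.52 CPM in untreated cells. Itgb5, an integrin beta chain, averaged 0.223 ± 0.0788 CPM with Dex plus GW7647, 0.455 ± 0.0163 CPM with Dex, and 1.299 ± 0.331 CPM in untreated cells.

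Genes of platelets and their precursors, the megakaryocytes, were 14 of the 120 and had a median ratio of 0.591 for Dex plus GW7647 to Dex and 0.361 for Dex to untreated. Rasgrp2, the exchange factor that turns calcium signals into integrin activation in platelets, had 9.72 and 9.56 CPM with Dex plus GW7647, 14.1 and 14.98 CPM with Dex, and 39.8 and 41.8 CPM without treatment. Alox12, the platelet lipoxygenase, had 7.45 and 8.54 CPM with Dex plus GW7647, 13.4 and 13.1 CPM with Dex, and 39.3 and 41.99 CPM in untreated libraries. Tubb1, the megakaryocyte beta tubulin of the platelet's marginal band, had 5.87 and 5.12 CPM with Dex plus GW7647, 8.58 and 8.79 CPM with Dex, and 31.6 and 34.2 CPM in untreated cells. In all of these the untreated libraries stood far above the rest, and the libraries with both drugs were the lowest. Tubb1 had the lowest ratio of Dex to untreated among the 14, 0.266. Its ratio of Dex plus GW7647 to Dex was 0.636.

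The platelet genes also covered receptors and enzymes of platelet activation. P2rx1, an ion channel opened by ATP, had 7.41 and 7.89 CPM with Dex plus GW7647, 11.8 and 12.9 CPM with Dex, and 30.8 and 31.1 CPM without treatment. Gp6, the collagen receptor glycoprotein VI, had 1.11 and 0.8896 CPM with Dex plus GW7647, 1.92 and 1.73 CPM with Dex, and 5.19 and 6.03 CPM in untreated libraries. Itga2, the collagen-binding integrin chain, had 0.556 and 0.639 CPM with Dex plus GW7647, 1.01 and 0.888 CPM with Dex, and 2.502 and 2.61 CPM in untreated cells. All of these were highest in untreated cells and lowest with both drugs, without overlap. Lcp2, the adaptor SLP-76 downstream of such receptors, averaged 5.24 ± 0.645 CPM with Dex plus GW7647, 9.38 ± 0.507 CPM with Dex, and 21.7 ± 0.0191 CPM in untreated cells. Ptgs1, cyclooxygenase 1 of thromboxane synthesis, averaged 3.81 ± 0.205 CPM with Dex plus GW7647, 7.17 ± 0.949 CPM with Dex, and 15.8 ± 0.164 CPM in untreated cells. Cavin2, a caveola protein abundant in platelets, averaged 5.44 ± 0.504 CPM with Dex plus GW7647, 8.59 ± 0.276 CPM with Dex, and 21.4 ± 0.596 CPM in untreated cells. Among these 3, Ptgs1 had the lower ratio of Dex plus GW7647 to Dex, 0.538, and Cavin2 the higher, 0.638.

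The remaining platelet genes were Gucy1b1, a subunit of the nitric oxide receptor guanylate cyclase, Pde3a, a cyclic nucleotide phosphodiesterase, Pecam1, an adhesion receptor shared with endothelium, Trpc6, a cation channel, and F10, coagulation factor X, which is best known as a liver product. F10 had 1.88 and 1.86 CPM with Dex plus GW7647, 3.29 and 3.396 CPM with Dex, and 11.8 and 10.9 CPM without treatment. Trpc6 had 1.69 and 1.501 CPM with Dex plus GW7647, 3.42 and 2.55 CPM with Dex, and 10.9 and 9.45 CPM in untreated libraries. The Dex libraries of Trpc6 differed more from each other than those of F10. Over the 14 genes the ratio of Dex plus GW7647 to Dex lay between 0.538 and 0.665, and that of Dex to untreated between 0.266 and 0.457.

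Other megakaryocyte and platelet genes were read from a list of 47 tested genes, 8 of which were among the 120. The rest include Ppbp, which met all cuts but was left out by name, and so was lower at both steps by choice. Of the 39 outside the 120, 28 were lower with Dex plus GW7647 than with Dex and 0 higher (edgeR quasi-likelihood test, Benjamini-Hochberg adjusted p under 0.05), where 7.58% and 2.15% of all tested genes were. None was higher at an unadjusted p under 0.05 or with DESeq2, a further count test, either. With Dex against untreated, 28 were lower and 7 higher, where 26.0% and 25.5% were. Without replicate 1 of Dex plus GW7647, 15 were lower in the first comparison. Plek, the platelet protein kinase C substrate pleckstrin, had 151 and 147 CPM with Dex plus GW7647, 271 and 285 CPM with Dex, and 264 and 247 CPM in untreated cells. It fell with GW7647 (log2 -0.89 ± 0.05 SE, edgeR adjusted p = 9.09e-06), and its Dex to untreated difference was -0.01 ± 0.05 (edgeR adjusted p = 0.905). Itga2b, which encodes the CD41 chain depleted in the sort, had 142 and 140 CPM with Dex plus GW7647, 228 and 200 CPM with Dex, and 208 and 214 CPM without treatment, and fell with GW7647 (log2 -0.59 ± 0.06, edgeR adjusted p = 0.00023). Its difference for Dex against untreated was -0.12 ± 0.06 (edgeR adjusted p = 0.131). Without Dex replicate 1, that difference was called lower (edgeR adjusted p = 0.00788). The summed level of the whole list was 1131 and 1134 CPM with Dex plus GW7647, between 1628 and 1659 CPM with Dex, and between 2604 and 2635 CPM in untreated cells. Its part in the result was not tested.

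Genes grouped loosely as granule and secreted defence proteins numbered 10, and not all are particular to granulocytes. They had a median ratio of 0.551 for Dex plus GW7647 to Dex and 0.342 for Dex to untreated. Ctsg, the neutrophil granule protease cathepsin G, had 9.08 and 9.62 CPM with Dex plus GW7647, 17.4 and 15.7 CPM with Dex, and 34.01 and 35.99 CPM in untreated cells. Plac8, a small protein of myeloid cells, had 8.39 and 7.92 CPM with Dex plus GW7647, 15.01 and 13.7 CPM with Dex, and 29.6 and 31.8 CPM without treatment. In both, the libraries of a group lay close together and the groups were well apart. Prg2, the major basic protein of eosinophil granules, had 0.985 and 0.973 CPM with Dex plus GW7647, 1.94 and 1.598 CPM with Dex, and 8.89 and 8.47 CPM in untreated libraries, and so was 8.14-fold below untreated with both drugs. Its neighbour and relative Prg3 had 0.0428 and 0.139 CPM with Dex plus GW7647, 0.314 and 0.1997 CPM with Dex, and 1.09 and 1.23 CPM in untreated cells. The counts behind Prg3 with both drugs were 2 and 5, so its ratio is imprecise.

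The lowest ratio of Dex plus GW7647 to Dex among all 120 was that of Fcnb, which encodes ficolin B, a pattern-recognition lectin of myeloid cells. It had 0.385 and 0.195 CPM with Dex plus GW7647, 1.18 and 1.26 CPM with Dex, and 4.15 and 3.59 CPM without treatment, from 18 and 7 counts with both drugs. Its ratios were 0.295 for Dex plus GW7647 to Dex and 0.333 for Dex to untreated, so the steps were of similar size, 3.39-fold with GW7647 and 3-fold with Dex. Camp, the cathelicidin antimicrobial peptide, had 0.1498 and 0.361 CPM with Dex plus GW7647, 1.2 and 0.7102 CPM with Dex, and 2.66 and 3.17 CPM in untreated libraries. Olfm4, a neutrophil granule glycoprotein, averaged 0.725 ± 0.00351 CPM with Dex plus GW7647, 1.301 ± 0.301 CPM with Dex, and 2.95 ± 0.0462 CPM in untreated cells. In Camp and Olfm4 the Dex libraries were spread more widely than in Fcnb. Slpi, an inhibitor of leukocyte elastase, averaged 0.243 ± 0.0104 CPM with Dex plus GW7647, 0.588 ± 0.109 CPM with Dex, and 2.53 ± 0.373 CPM in untreated cells, and Plau, urokinase, averaged 0.187 ± 0.0682 CPM with Dex plus GW7647, 0.508 ± 0.0908 CPM with Dex, and 1.46 ± 0.0323 CPM in untreated cells. Ctss, the lysosomal protease cathepsin S of antigen-presenting cells, was nearly undetected in treated cells, with 2 and 2 counts with Dex plus GW7647, 6 and 7 with Dex, and 55 and 42 in untreated libraries.

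Among 41 tested neutrophil and granulocyte genes, 9 were among the 120. The other 32 include 1 that met all cuts but was left out by name, and so was lower at both steps by choice. Of the 32, 24 were lower with Dex plus GW7647 than with Dex and 0 higher (edgeR, with 0 higher also at an unadjusted p under 0.05 and with DESeq2). That compares with 7.58% and 2.15% of all tested genes. With Dex against untreated, 16 of the 32 were lower and 4 higher, where 26.0% and 25.5% of all tested genes were. The summed level of the whole list was 259 and 260 CPM with Dex plus GW7647 and between 452 and 463 CPM with Dex. In untreated cells it was between 581 and 612 CPM, and its part in the result was not tested. Ly6g, Retnlg and Fpr1, which mark mature neutrophils, were at 0 in all libraries. Subunits of the phagocyte NADPH oxidase differed in their values at the Dex step. Cybb, its membrane subunit and 1 of the 120, had 0.514 and 0.417 CPM with Dex plus GW7647, 0.886 and 0.999 CPM with Dex, and 4.15 and 3.24 CPM in untreated cells. Ncf1, a cytosolic subunit, had 5.76 and 4.98 CPM with Dex plus GW7647, 13.7 and 13.5 CPM with Dex, and 13.1 and 12.9 CPM in untreated cells, a fall with GW7647 (log2 -1.33 ± 0.09, edgeR adjusted p = 1.64e-05) beside a Dex difference of -0.06 ± 0.08 (adjusted p = 0.568). Of 8 tested eosinophil genes, Prg2, Prg3 and Cebpe were among the 120. Of the other 5, 1 was lower with GW7647 and 3 were lower and 1 higher with Dex, or 1 lower without Dex replicate 1. The eosinophil list summed to 3.47 and 3.50 CPM with Dex plus GW7647, between 6.64 and 7.14 CPM with Dex, and between 17.0 and 17.9 CPM without treatment, with Ear10 at 0 in every library.

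**Figure D3:**
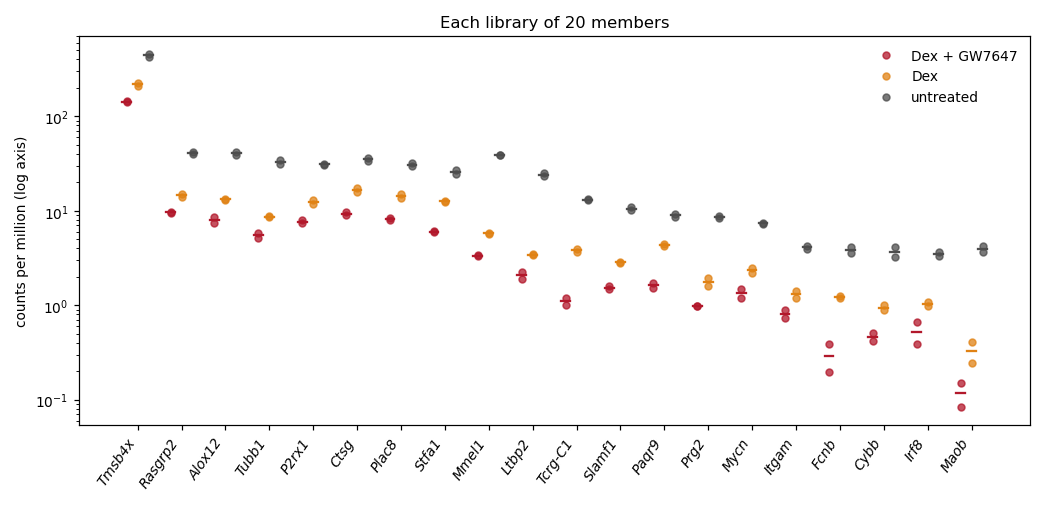
Each dot is a library and each bar the mean of 2 libraries, in CPM on a log axis, for 20 of the 120 genes, with Dex plus GW7647 in red, Dex in orange and untreated cells in grey. In each gene the red dots lie below the orange and the orange below the grey, and the gap between grey and orange is widest for Maob, Ltbp2 and Mmel1.

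In 4 protease inhibitors both steps were of similar size. Stfa1 and Stfa3 encode stefin A cystatins, small inhibitors of cysteine proteases made by myeloid cells, and BC100530 belongs to the same cluster of closely related copies. Stfa1 had 6.06 and 5.89 CPM with Dex plus GW7647, 12.4 and 12.8 CPM with Dex, and 24.7 and 27.1 CPM without treatment. BC100530 had 3.75 and 4.23 CPM with Dex plus GW7647, 7.72 and 8.5 CPM with Dex, and 18.4 and 17.8 CPM in untreated libraries. Stfa3 had 0.364 and 0.306 CPM with Dex plus GW7647, 0.646 and 0.9099 CPM with Dex, and 1.76 and 2.01 CPM in untreated cells. In each of the stefin genes the groups stood apart, with the untreated libraries highest and those with both drugs lowest. Serpinb10, an intracellular serpin of bone marrow, had 1.18 and 1.22 CPM with Dex plus GW7647, 2.71 and 2.86 CPM with Dex, and 7.61 and 6.53 CPM without treatment. Its annotation in the mouse is that of a polymorphic pseudogene. The ratio of Dex plus GW7647 to Dex was 0.478 for Stfa1, 0.498 for BC100530, 0.495 for Stfa3 and 0.45 for Serpinb10, and the ratio of Dex to untreated lay between 0.403 and 0.489. Reads of the stefin copies may be shared between them, so their separate levels are uncertain. Of 28 tested proteases and inhibitors 6 were among the 120. The other 22 include 3 that met all cuts but were left out by name, and so were lower at both steps by choice. Of the 22, 11 were lower and 0 higher with GW7647 by edgeR (1 higher at an unadjusted p under 0.05, and 0 with DESeq2). That compares with 7.58% and 2.15% of all tested genes. With Dex, 14 of the 22 were lower and 5 higher, where 26.0% and 25.5% of all tested genes were. Serpinb1a, an inhibitor of granule proteases, fell at both steps without meeting the cut for Dex, with 6.21 and 5.50 CPM with Dex plus GW7647, 12.7 and 14.1 CPM with Dex, and 24.99 and 25.96 CPM in untreated cells (log2 -1.17 ± 0.09 and edgeR adjusted p = 4.53e-05 with GW7647; log2 -1.06 ± 0.08 and adjusted p = 2.88e-06 with Dex).

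Surface receptors and signalling proteins of myeloid cells added 14 genes, all under 10 CPM in untreated cells. Itgam, the CD11b integrin chain that marks granulocytes and macrophages and is a usual lineage marker, had 0.728 and 0.8896 CPM with Dex plus GW7647, 1.18 and 1.42 CPM with Dex, and 4.28 and 3.92 CPM in untreated libraries. Anxa3, a calcium-dependent phospholipid-binding protein of granules, had 1.97 and 2.25 CPM with Dex plus GW7647, 3.21 and 3.37 CPM with Dex, and 7.45 and 6.86 CPM in untreated cells. Ly6c2, a surface marker of monocytes, had 0.963 and 0.612 CPM with Dex plus GW7647, 2.14 and 1.84 CPM with Dex, and 3.78 and 4.72 CPM without treatment. In these genes all 6 libraries kept the order of the groups. Clec5a, a lectin receptor, averaged 0.631 ± 0.106 CPM with Dex plus GW7647, 1.23 ± 0.117 CPM with Dex, and 3.03 ± 0.305 CPM in untreated cells, and Hk3, the hexokinase of myeloid cells, averaged 0.4397 ± 0.0466 CPM with Dex plus GW7647, 0.841 ± 0.0903 CPM with Dex, and 2.66 ± 0.148 CPM in untreated cells. Cd180, a Toll-like receptor homologue, had the lowest ratio of Dex plus GW7647 to Dex of the group, 0.396, on 4 and 6 counts with both drugs.

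Of 31 tested genes of monocytes, macrophages and dendritic cells, 7 were among the 120. Of the other 24, 6 were lower and 0 higher with GW7647 by edgeR (0 higher also at an unadjusted p under 0.05 and with DESeq2), and 12 were lower and 4 higher with Dex. Among all tested genes, 7.58% were lower and 2.15% higher with GW7647, and 26.0% and 25.5% with Dex. The list summed to 285 CPM in both libraries of Dex plus GW7647, between 456 and 464 CPM with Dex, and between 184 and 194 CPM in untreated cells. Much of that sum was Laptm5, a lysosomal membrane protein of blood cells, which had 204 and 206 CPM with Dex plus GW7647, 337 and 340 CPM with Dex, and 84.3 and 90.9 CPM in untreated cells, so the sum and the counts of calls differ in direction at the Dex step. C1qa and Cd163, markers of macrophages, were at 0 in every library. Spi1, which encodes the myeloid transcription factor PU.1, had 33.3 and 33.2 CPM with Dex plus GW7647, 65.7 and 57.9 CPM with Dex, and 13.84 and 14.95 CPM without treatment. It rose with Dex (log2 1.97 ± 0.07, edgeR adjusted p = 2.14e-08) and fell with GW7647 (log2 -0.88 ± 0.07, edgeR adjusted p = 3.43e-05). Itgb2, the partner chain of CD11b, had 30.1 and 30.9 CPM with Dex plus GW7647, 61.7 and 63.5 CPM with Dex, and 25.7 CPM in both untreated libraries. It also rose with Dex (log2 1.16 ± 0.05, edgeR adjusted p = 8.54e-08) and fell with GW7647 (log2 -1.03 ± 0.05, edgeR adjusted p = 3.54e-06), while Itgam was lower at both steps. Ccr2, the receptor for monocyte chemoattractant, fell at both steps but by less than the rule asks at the first (log2 -1.02 ± 0.16 and edgeR adjusted p = 0.0035 with GW7647; log2 -0.99 ± 0.14 and adjusted p = 0.000199 with Dex).

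Transcription factors numbered 5. Irf8, which directs monocyte and dendritic cell fate, had 0.664 and 0.389 CPM with Dex plus GW7647, 1.09 and 0.977 CPM with Dex, and 3.699 and 3.29 CPM in untreated libraries. Cebpe, which drives the late granule genes of neutrophils and eosinophils, had 0.963 and 0.751 CPM with Dex plus GW7647, 1.48 and 1.31 CPM with Dex, and 2.98 and 3.79 CPM in untreated cells. Mycn, a relative of Myc, had 1.199 and 1.501 CPM with Dex plus GW7647, 2.47 and 2.197 CPM with Dex, and 7.32 and 7.49 CPM without treatment. In these 3 genes no library left the order of its group. Hes1, a repressor downstream of Notch, had 0.128 and 0.195 CPM with Dex plus GW7647, 0.203 and 0.533 CPM with Dex, and 1.14 and 1.18 CPM in untreated libraries. Dex replicate 1 of Hes1 lay just above the libraries with both drugs, and Dex replicate 2 well above them. Gbx2, a homeobox factor, averaged 0.8601 ± 0.116 CPM with Dex plus GW7647, 1.33 ± 0.216 CPM with Dex, and 3.75 ± 0.00546 CPM in untreated cells.

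Genes grouped as lymphoid receptors and signalling numbered 6, with a median ratio of Dex to untreated of 0.285. Ighm and Cd79b among them are on the lymphoid list used below. Slamf1 is on the early progenitor list and Il21r on the list of cytokine and chemokine receptors. Tcrg-C1, a constant segment of the T cell receptor gamma locus, had 1.199 and 1.001 CPM with Dex plus GW7647, 3.67 and 3.93 CPM with Dex, and 13.04 and 13.2 CPM in untreated cells. It had low ratios at both steps, 0.308 for Dex plus GW7647 to Dex and 0.295 for Dex to untreated, and was 11-fold below untreated with both drugs. Sla2, an adaptor that dampens T cell receptor signalling, had 4.56 and 3.78 CPM with Dex plus GW7647, 7.31 and 8.32 CPM with Dex, and 23.3 and 25.6 CPM without treatment. Slamf1, the CD150 receptor known from stem cells and lymphocytes, had 1.48 and 1.58 CPM with Dex plus GW7647, 2.88 and 2.796 CPM with Dex, and 10.96 and 10.2 CPM in untreated libraries. The untreated libraries of Sla2 and Slamf1 lay far above all treated ones. Il21r, the receptor for interleukin 21, had 0.856 and 0.473 CPM with Dex plus GW7647, 1.31 and 1.13 CPM with Dex, and 4.71 and 5.33 CPM in untreated cells. Ighm, the immunoglobulin mu chain, averaged 0.298 ± 0.0891 CPM with Dex plus GW7647, 0.643 ± 0.187 CPM with Dex, and 2.85 ± 0.225 CPM in untreated cells, and Cd79b, a signalling chain of the B cell receptor, averaged 0.214 ± 0.0906 CPM with Dex plus GW7647, 0.462 ± 0.0255 CPM with Dex, and 1.12 ± 0.119 CPM in untreated cells. Other lymphoid markers were scarce. Of 7 tested, Ighm, Cd79b and Nkg7 were among the 120, where Nkg7 is grouped with the myeloid surface proteins. The other 4 gave 0 calls with GW7647 by edgeR (0 also at an unadjusted p under 0.05 and with DESeq2) and 1 lower and 1 higher with Dex. Of all tested genes, 7.58% were lower and 2.15% higher with GW7647, and 26.0% and 25.5% with Dex. Cd3d, Gzma, Cd2 and Il2ra were at 0 in every library.

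Cytokines and chemokines were 7 genes, each under 5 CPM in untreated cells. Ccl9, a chemokine of the myeloid lineage, had 1.03 and 1.001 CPM with Dex plus GW7647, 1.44 and 1.71 CPM with Dex, and 4.34 and 4.57 CPM without treatment. Osm, oncostatin M of the interleukin 6 family, had 0.535 and 0.389 CPM with Dex plus GW7647, 1.37 and 0.644 CPM with Dex, and 3.78 and 3.37 CPM in untreated libraries. Cxcl5, a neutrophil chemoattractant, averaged 0.1797 ± 0.0183 CPM with Dex plus GW7647, 0.5301 ± 0.216 CPM with Dex, and 1.88 ± 0.204 CPM in untreated cells. The Dex libraries of Osm were wide apart. Csf1, the macrophage growth factor, averaged 0.468 ± 0.0859 CPM with Dex plus GW7647, 0.843 ± 0.252 CPM with Dex, and 2.24 ± 0.0357 CPM in untreated cells, and Tnf, tumour necrosis factor, averaged 0.233 ± 0.094 CPM with Dex plus GW7647, 0.4305 ± 0.0438 CPM with Dex, and 1.53 ± 0.176 CPM in untreated cells. Il12a and Ebi3 encode the chains that together form interleukin 35. Il12a averaged 0.364 ± 0.121 CPM with Dex plus GW7647, 0.615 ± 0.00868 CPM with Dex, and 2.19 ± 0.0336 CPM in untreated cells. Ebi3 averaged 0.415 ± 0.0421 CPM with Dex plus GW7647, 0.671 ± 0.0871 CPM with Dex, and 1.65 ± 0.451 CPM in untreated cells. Over all tested genes, edgeR called 7.58% lower and 2.15% higher with GW7647, and 26.0% and 25.5% with Dex. Of 27 tested cytokine genes 4 were among the 120, and of the other 23, 3 were lower and 1 higher with GW7647, or 1 lower without replicate 1 of Dex plus GW7647. With Dex, 10 of the 23 were lower and 4 higher, 6 lower without untreated replicate 1.

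Interferon-stimulated genes gave 4 of the 120. Ifitm1 and Ifitm3, neighbouring genes for membrane proteins that restrict virus entry, differed in the steps. Ifitm1 had 3.58 and 3.503 CPM with Dex plus GW7647, 6.48 and 6.12 CPM with Dex, and 12.99 and 15.2 CPM in untreated cells. Ifitm3 had 2.12 and 1.86 CPM with Dex plus GW7647, 3.08 and 3.08 CPM with Dex, and 9.42 and 9.5 CPM without treatment. The ratios were 0.568 for Dex plus GW7647 to Dex and 0.451 for Dex to untreated for Ifitm1 and 0.657 for Dex plus GW7647 to Dex and 0.333 for Dex to untreated for Ifitm3. Oas3, an activator of RNA decay, averaged 0.802 ± 0.0448 CPM with Dex plus GW7647, 1.54 ± 0.172 CPM with Dex, and 3.23 ± 0.235 CPM in untreated cells. Over all tested genes, edgeR called 7.58% lower and 2.15% higher with GW7647, and 26.0% and 25.5% with Dex. On a list of 29 tested interferon-stimulated genes, Oas3 was among the 120. Of the other 28, 12 were lower and 5 higher with Dex, and 6 were lower and 2 higher with GW7647, or 2 and 1 lower without replicate 1 and replicate 2 of Dex plus GW7647. Rsad2, the antiviral enzyme viperin, fell with Dex (log2 -3.06 ± 0.07, edgeR adjusted p = 1.93e-09) but rose with GW7647 (log2 0.46 ± 0.08, edgeR adjusted p = 0.00624). The rise was not called without replicate 2 of Dex plus GW7647 (edgeR adjusted p = 0.0681).

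The 6 genes of the matrix and of growth factor binding had a median ratio of Dex to untreated of 0.186. Mmel1, a membrane metallopeptidase related to neprilysin, had 3.38 and 3.28 CPM with Dex plus GW7647, 5.796 and 5.73 CPM with Dex, and 38.9 and 38.6 CPM in untreated libraries. Ltbp2, a matrix protein of the latent TGF-beta binding family, had 1.91 and 2.22 CPM with Dex plus GW7647, 3.47 and 3.37 CPM with Dex, and 23.2 and 25.1 CPM in untreated cells. Mmel1 stood 6.64-fold and Ltbp2 6.89-fold lower with Dex than without, and their second step was near the median of the 120, at 0.585 and 0.615. Sfrp4, a secreted Wnt antagonist, had 0.214 and 0.306 CPM with Dex plus GW7647, 0.812 and 0.555 CPM with Dex, and 3.91 and 4.55 CPM without treatment, and was 12-fold below untreated with both drugs. Gpc1, a heparan sulphate proteoglycan, averaged 0.3198 ± 0.0588 CPM with Dex plus GW7647, 0.564 ± 0.144 CPM with Dex, and 3.37 ± 0.814 CPM in untreated cells. Igfbp4, which binds insulin-like growth factors, had 3.75 and 3.697 CPM with Dex plus GW7647, 7.31 and 7.39 CPM with Dex, and 16.3 and 16.1 CPM in untreated libraries. Unlike Mmel1 it had steps of similar size, 0.513 for Dex plus GW7647 to Dex and 0.457 for Dex to untreated.

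Enzymes of metabolism numbered 11. Maob, monoamine oxidase B, was the gene with the largest total difference of the 120, 18.7-fold below untreated with both drugs. It had 0.1498 and 0.0834 CPM with Dex plus GW7647, 0.406 and 0.244 CPM with Dex, and 3.65 and 4.25 CPM in untreated cells, from 7 and 3 counts with Dex plus GW7647, 22 and 11 with Dex, and 137 and 169 without treatment. B3gnt7, a glycosyltransferase of keratan sulphate synthesis, had 12.6 and 12.3 CPM with Dex plus GW7647, 20.8 and 20.1 CPM with Dex, and 48.5 and 52.2 CPM without treatment. Sardh, the mitochondrial sarcosine dehydrogenase, had 0.4495 and 0.528 CPM with Dex plus GW7647, 1.53 and 1.33 CPM with Dex, and 5.64 and 5.48 CPM in untreated libraries, with ratios of 0.384 for Dex plus GW7647 to Dex and 0.271 for Dex to untreated. Cyp11a1, the enzyme that starts steroid hormone synthesis, had 1.58 and 2.002 CPM with Dex plus GW7647, 3.56 and 2.51 CPM with Dex, and 7.03 and 7.46 CPM in untreated cells. Its Dex libraries differed more from each other than its libraries of either other group. Ass1, argininosuccinate synthase, averaged 2.74 ± 0.0608 CPM with Dex plus GW7647, 4.37 ± 0.667 CPM with Dex, and 10.5 ± 0.268 CPM in untreated cells. Gm5424, a processed pseudogene whose sequence is close to Ass1, averaged 1.24 ± 0.0281 CPM with Dex plus GW7647, 2.32 ± 0.0125 CPM with Dex, and 4.87 ± 0.57 CPM in untreated cells. Ass1 and Gm5424 may share reads.

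Channels, receptors and G protein signalling genes numbered 12. Kcnj5, an inward rectifier potassium channel, had 2.93 and 3.31 CPM with Dex plus GW7647, 6.48 and 5.84 CPM with Dex, and 13.01 and 13.6 CPM without treatment. Gnai1, an inhibitory G protein alpha subunit, had 0.428 and 0.389 CPM with Dex plus GW7647, 1.77 and 1.18 CPM with Dex, and 3.33 and 3.95 CPM in untreated libraries, with the third lowest ratio of Dex plus GW7647 to Dex of the 120, 0.323. Paqr9, a membrane progestin receptor, had 1.71 and 1.53 CPM with Dex plus GW7647, 4.19 and 4.48 CPM with Dex, and 8.65 and 9.25 CPM in untreated cells. In Paqr9 and Gnai1 the second step was larger than the first, with ratios of 0.388 for Dex plus GW7647 to Dex and 0.49 for Dex to untreated and 0.323 for Dex plus GW7647 to Dex and 0.421 for Dex to untreated. Ptger2, a prostaglandin E2 receptor, averaged 0.141 ± 0.0425 CPM with Dex plus GW7647, 0.388 ± 0.0789 CPM with Dex, and 1.38 ± 0.145 CPM in untreated cells. Ramp1, which pairs with the calcitonin receptor-like receptor, averaged 0.844 ± 0.104 CPM with Dex plus GW7647, 1.38 ± 0.22 CPM with Dex, and 4.01 ± 1.08 CPM in untreated cells. Among all tested genes, edgeR called 7.58% lower and 2.15% higher with GW7647, and 26.0% and 25.5% with Dex. Of 38 tested channel and receptor genes 4 were among the 120. Of the other 34, 12 were lower and 0 higher with GW7647 by edgeR (0 higher also at an unadjusted p under 0.05 and with DESeq2), or 6 and 7 lower without replicate 1 and replicate 2 of Dex plus GW7647, and 17 were lower and 11 higher with Dex.

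The last small group held Ptk7, Vangl2 and Epha4, known from cell polarity and guidance in embryos. Ptk7, a pseudokinase of planar cell polarity, averaged 0.699 ± 0.231 CPM with Dex plus GW7647, 1.17 ± 0.147 CPM with Dex, and 2.65 ± 0.404 CPM in untreated cells. Vangl2, a core component of that pathway, averaged 0.426 ± 0.0269 CPM with Dex plus GW7647, 0.745 ± 0.14 CPM with Dex, and 1.71 ± 0.424 CPM in untreated cells. Epha4, an ephrin receptor, averaged 0.123 ± 0.0226 CPM with Dex plus GW7647, 0.377 ± 0.0632 CPM with Dex, and 0.987 ± 0.223 CPM in untreated cells. For 17 genes no role was assigned. D030025P21Rik, among them, had the lowest ratio of Dex to untreated of the 120, 0.0892, on 4 and 1 counts with Dex plus GW7647, 5 and 8 with Dex, and 96 and 100 in untreated cells. Whether the authors counted by strand is not stated, so its reads and those of any gene on the opposite strand cannot be told apart. Gmfg-ps, a pseudogene, had 0.749 and 0.139 CPM with Dex plus GW7647, 0.868 and 0.799 CPM with Dex, and 1.81 and 1.86 CPM without treatment. Replicate 1 with both drugs lay close to the Dex libraries, and replicate 2 far below them.

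By the RefSeq gene order, 117 of the 125 genes that met the cuts could be placed, and 8 pairs among them lay next to each other on a chromosome or with at most 2 protein-coding genes between them. Prg2 and Prg3, Ifitm1 and Ifitm3, Ctsg and the mast cell protease gene Mcpt8, and Cxcl5 and Ppbp had none between them. Mcf2l and F10 had F7 between them, Lst1 and Tnf had Ltb, Slamf1 and Vangl2 had Cd84 and Slamf6, and Cdc42ep5 and Gp6 had Lilra5 and Ncr1. Mcpt8 and Ppbp are among 5 genes that met all cuts but were left out by name, with Cma1, Tpsg1 and Lyz2. Ppbp, the platelet chemokine precursor, had 6.29 and 7.34 CPM with Dex plus GW7647, 16.2 and 20.7 CPM with Dex, and 81.2 and 81.8 CPM in untreated libraries. Cma1, the mast cell chymase, had 1.37 and 1.33 CPM with Dex plus GW7647, 5.13 and 4.93 CPM with Dex, and 18.8 and 18.3 CPM in untreated cells. Of 38 tested genes of mast cells and basophils, Cyp11a1, Osm and Hs6st2 were among the 120. Of the other 35, 3 met all cuts but were left out by name, and so were lower at both steps by choice. With GW7647, 22 of the 35 were lower and 1 higher, where 7.58% and 2.15% of all tested genes were. With Dex, 14 of the 35 were lower and 11 higher, where 26.0% and 25.5% were. The list summed to 1616 and 1619 CPM with Dex plus GW7647, between 2719 and 2764 CPM with Dex, and between 1210 and 1255 CPM in untreated cells, and its part in the result was not tested. Hdc, the histamine-forming enzyme, had 120 and 117 CPM with Dex plus GW7647, 212 and 201 CPM with Dex, and 38.1 and 38.0 CPM in untreated cells. It rose with Dex (log2 2.31 ± 0.05, edgeR adjusted p = 1.1e-09) and fell with GW7647 (log2 -0.79 ± 0.05, edgeR adjusted p = 8.58e-06).

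Genes of lists that held few or none of the 120 are given for comparison. Beside them, edgeR called 7.58% of all tested genes lower and 2.15% higher with GW7647, and 26.0% and 25.5% with Dex. On the early progenitor list, where Slamf1 is, 10 of the other 30 were lower and 1 higher with GW7647. With Dex, 19 of these were lower and 4 higher. On the list of genes of the sort gate, where Itgam is, 5 of the other 8 were lower and 0 higher with GW7647 by edgeR, or 3 lower with DESeq2. With Dex, 5 of these were lower and 2 higher. On the list of cytokine and chemokine receptors, where Il21r is among the 120, 19 of the other 45 were lower and 1 higher with GW7647, and 10 or 11 were lower without replicate 1 or replicate 2 of Dex plus GW7647. On the list of adhesion and matrix genes, where Itgam, Itga2 and Itgb5 are, 21 of the other 39 were lower and 0 higher (edgeR, with 0 higher also at an unadjusted p under 0.05 and with DESeq2), and 13 were lower without replicate 1. On the list of endothelial and stromal genes, where Pecam1 is, 5 of the other 13 were lower and 0 higher (likewise 0 at an unadjusted p under 0.05 and with DESeq2). With Dex, 19 were lower and 14 higher on the receptor list, 15 and 9 on the adhesion list, and 5 and 4 on the endothelial list, where 3 were lower without Dex replicate 2 and 2 without untreated replicate 2 or with DESeq2. None of the 120 was on the lists of 23 tested glucocorticoid receptor targets, 27 PPAR targets, 31 immediate early genes or 6 hepatoblast genes. The 120 were few among the 14125 genes tested, so lists this short may hold none, and nothing is read from their absence. Of the glucocorticoid receptor targets, 9 were lower and 0 higher with GW7647 (edgeR, with 0 higher also at an unadjusted p under 0.05 and with DESeq2), or 4 lower without replicate 1 of Dex plus GW7647, and 4 were lower and 15 higher with Dex. Of the PPAR targets, 0 were lower and 10 higher with GW7647 (edgeR, with 2 lower at an unadjusted p under 0.05 and 0 with DESeq2), and 9 were lower and 11 higher with Dex. Of the immediate early genes, 5 were lower and 0 higher with GW7647 (edgeR, with 2 higher at an unadjusted p under 0.05 and 0 with DESeq2), and 12 were lower, or 7 with DESeq2, and 12 higher with Dex.

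**Figure D4:**
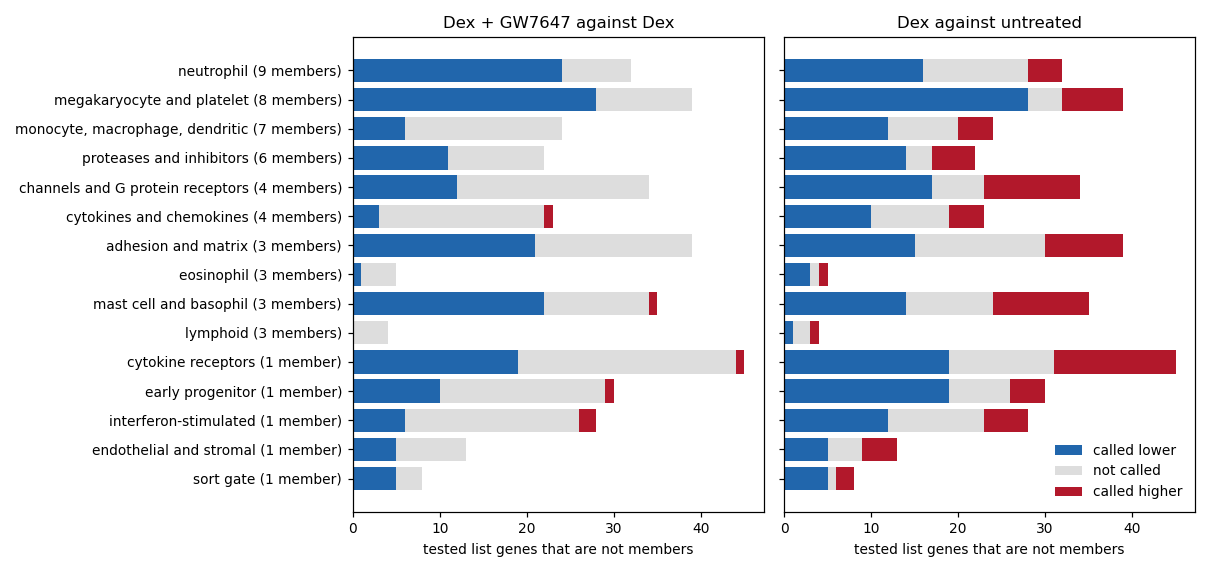
For each list that holds at least 1 of the 120 genes, bars count its other tested genes, by edgeR call at an adjusted p under 0.05, for Dex plus GW7647 against Dex on the left and Dex against untreated on the right, with the number of the 120 genes on each list in brackets. With GW7647 the megakaryocyte bar holds 28 lower and 0 higher and the neutrophil bar 24 lower and 0 higher, while with Dex each of these lists has genes called higher as well as lower. Over all tested genes, 7.58% were lower and 2.15% higher with GW7647, and 26.0% and 25.5% with Dex.

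Sequences just before and after the start sites were read for the genes found in RefSeq's promoter table on build GRCm38.p6, which held 93 of the 120 with 118 start windows of 300 bases, 250 before and 50 after the start. The windows of P2rx1 for the platelet genes, Ctsg for the granule genes, and the neighbouring or related pairs Stfa1 and Stfa3, and Ifitm1 and Ifitm3, are shown so that the letters behind the counts can be seen. They are written 5′ to 3′ on the strand of the gene, and capitals mark the GATA letters AGATAA, the ETS letters AGGAAG and the RUNX letters TGTGGT on either strand.
P2rx1: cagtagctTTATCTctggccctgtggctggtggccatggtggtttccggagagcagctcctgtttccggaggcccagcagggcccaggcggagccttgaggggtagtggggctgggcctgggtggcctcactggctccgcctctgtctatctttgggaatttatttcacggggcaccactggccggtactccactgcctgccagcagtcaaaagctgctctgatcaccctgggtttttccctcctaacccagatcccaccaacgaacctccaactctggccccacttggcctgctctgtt
Ctsg: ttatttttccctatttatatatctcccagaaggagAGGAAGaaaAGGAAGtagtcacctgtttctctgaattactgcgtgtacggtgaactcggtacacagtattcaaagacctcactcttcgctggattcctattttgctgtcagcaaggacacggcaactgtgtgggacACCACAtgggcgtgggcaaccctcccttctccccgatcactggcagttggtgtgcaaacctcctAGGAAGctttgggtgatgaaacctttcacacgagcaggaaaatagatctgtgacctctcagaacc
Stfa1: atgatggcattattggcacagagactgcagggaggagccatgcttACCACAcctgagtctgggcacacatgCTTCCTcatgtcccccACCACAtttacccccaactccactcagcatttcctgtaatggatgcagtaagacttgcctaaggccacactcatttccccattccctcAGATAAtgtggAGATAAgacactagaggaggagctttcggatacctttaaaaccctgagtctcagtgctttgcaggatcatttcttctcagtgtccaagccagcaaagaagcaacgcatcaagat
Stfa3: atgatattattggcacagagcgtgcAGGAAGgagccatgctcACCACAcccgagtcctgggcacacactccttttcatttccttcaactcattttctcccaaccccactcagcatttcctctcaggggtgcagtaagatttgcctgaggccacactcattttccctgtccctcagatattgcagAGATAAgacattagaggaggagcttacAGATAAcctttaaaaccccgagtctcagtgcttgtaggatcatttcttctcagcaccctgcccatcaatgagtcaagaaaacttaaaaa
Ifitm1: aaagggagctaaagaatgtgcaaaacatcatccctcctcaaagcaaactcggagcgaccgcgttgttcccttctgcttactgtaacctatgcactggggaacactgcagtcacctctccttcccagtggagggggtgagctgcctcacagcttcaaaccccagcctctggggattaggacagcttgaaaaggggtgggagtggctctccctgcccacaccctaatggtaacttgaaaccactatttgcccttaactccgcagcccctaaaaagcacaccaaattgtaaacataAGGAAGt
Ifitm3: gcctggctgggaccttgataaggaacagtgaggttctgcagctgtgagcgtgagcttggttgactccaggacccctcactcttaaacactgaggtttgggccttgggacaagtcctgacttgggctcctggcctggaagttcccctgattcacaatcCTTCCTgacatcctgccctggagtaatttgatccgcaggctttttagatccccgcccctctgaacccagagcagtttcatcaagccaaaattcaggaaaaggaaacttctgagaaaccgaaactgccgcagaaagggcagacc
The window of P2rx1 lies at chr11:72998895-72999194 (plus strand) and holds 1 GATA match. That of Ctsg lies at chr14:56102525-56102824 (minus strand) and holds 3 ETS matches and 1 RUNX match. Stfa1, at chr16:36276898-36277197 (plus strand), holds 2 GATA, 1 ETS and 2 RUNX matches. Stfa3, at chr16:36455343-36455642 (minus strand), holds 2 GATA, 1 ETS and 1 RUNX match, and 245 of 304 aligned columns (80.6%) are identical between the stefin windows. Ifitm1 lies at chr7:140967826-140968125 (plus strand) and Ifitm3 at chr7:141010695-141010994 (minus strand), with 1 ETS match each.

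Over all windows, 10 short motifs were searched on both strands, and shares are given for the 118 windows of the 120 genes, then for 12713 windows of all genes tested and 32851 windows in the table. The E-box CAGCTG was in 26.3% of the windows of the 120, against 15.1% of tested genes and 16.3% of the table. ETS letters AGGAAG were in 44.1%, against 33.5% and 35.4%. The longer PU.1 form GAGGAAG, which contains the ETS letters, was in 21.2%, against 13.5% and 13.6%. RUNX letters TGTGGT were in 21.2%, against 13% and 16.8%. These are descriptions of short letter strings, not of bound sites. The glucocorticoid receptor letters AGAACA were in 20.3%, against 12.6% and 19.0%, and GATA letters AGATAA in 11%, against 6.83% and 11.2%. Both were thus more frequent than in tested genes, while against the whole table the glucocorticoid receptor letters stood slightly higher and the GATA letters slightly lower. The nuclear receptor letters AGGTCA were in 15.3%, against 12.5% and 16.3%. The AP-1 letters TGAGTCA were in 5.08%, against 3.7% and 5.2%, and the interferon response motif in 4.24%, against 2.92% and 3.44%. C/EBP letters TTGCNNAA were in 6.78%, against 8.29% and 10.8%, the only motif of the 10 that was rarer in the 120 than in both backgrounds.

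**Figure D5:**
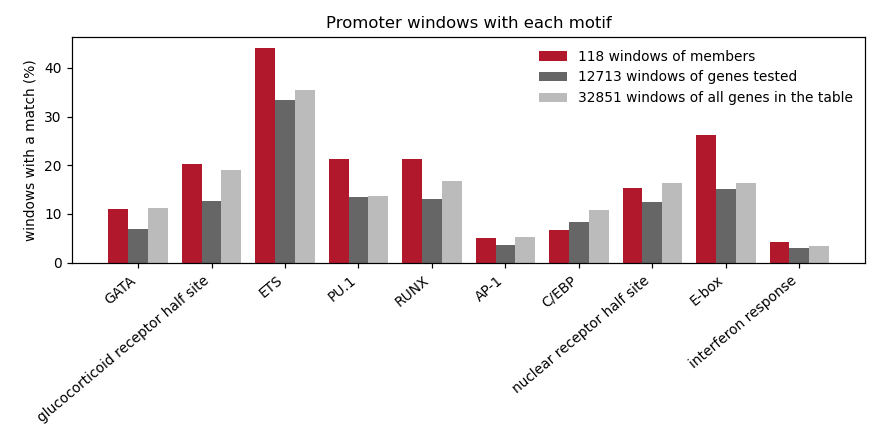
Bars give the percent of promoter windows with at least 1 match on either strand for each motif, for windows of the 120 genes in red, of all tested genes in dark grey and of the whole table in light grey. The E-box, ETS, PU.1 and RUNX bars of the 120 stand above both grey bars, as do the lower interferon response bar and the glucocorticoid receptor bar, and the C/EBP bar stands below both.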

How the data were processed

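RNA from 6 libraries was sequenced. Per the submitters' processing notes, the authors used TopHat 1.4.1, HTSeq and DESeq, with mm9 and NCBIM37 named as builds. Whether reads were counted by strand is not given in the sources used here. The deposited values used here are whole-number counts per Ensembl gene and library, in 2 tables of 37620 genes that share the libraries with both drugs, whose counts were identical in the tables. Symbols came from GENCODE M21 by Ensembl identifier, for 32897 genes (87.45%). That annotation is of a later build, so positions are given only for RefSeq promoter windows, on GRCm38.p6.

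The 120 genes and the gene lists were chosen with earlier results of these data known. CPM and the rule were computed in Python 3.11.15. Genes passing edgeR's filterByExpr with a minimum count of 10 (14125 genes) were tested in edgeR 4.0.16 (R 4.3.3) over all 6 libraries, with TMM scaling, the quasi-likelihood test and Benjamini-Hochberg adjustment at 0.05. The procedure was tested on simulated counts. Named genes were the 12 of highest untreated CPM, the 12 of lowest ratio of both drugs to untreated at 5 CPM or more, up to 5 of the 120 and 3 other genes per list, and the genes at the cuts. Others among the 120 were named after their values were seen. Genes that the rule names but the text does not are not reported here. Depth was 35970286 to 54174801 counts, so counting error is large for genes near 1 CPM. Alternatives were DESeq2 1.42.0, total count scaling, no filter, a replicate block, other forms of the rule and leaving out each library.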

Additional observations from a re-analysis of the deposited data

How the results depend on the processing

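The number of genes meeting the rule was 26 with a constant of 1 CPM, 49 with a floor of 5 CPM, 13 with ratios of at most 0.4 and 0.5, and 39 with the cuts met between the nearest libraries, against 120. With TMM or DESeq2 scaling in the rule it was 133 or 135, sharing 113 and 115 with the 120, and with no constant 146, sharing 119. With a library left out it was 108 to 126. Deviations of same-numbered libraries were weakly correlated between groups (0.149, -0.0461 and -0.212), which cannot settle whether the samples were paired. With a replicate block, the rule met within both numbers, the number of genes was 53. In edgeR with a replicate block the calls were 998 for Dex plus GW7647 against Dex, 6824 for Dex against untreated and 6523 for both drugs against untreated.

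Calls for Dex plus GW7647 against Dex were 1374, and 2085 with no filter. Leaving out 1 library gave 548 to 1729, lowest without replicate 1 of Dex plus GW7647 and 618 without replicate 2, and list genes called were 114 to 189 against 193, with 114 and 127 in the same cases. For Dex against untreated, calls were 7283 (3677 lower, 3606 higher), 6067 to 7077 with a library left out, and 8035 (2584 lower, 5451 higher) under total count scaling, which shifts the median difference by 0.130. For both drugs against untreated they were 7025 (3539 lower, 3486 higher), and 8199 (2719 lower, 5480 higher) under total count scaling. Of the 120 genes, which this comparison helped to choose, 71 were called lower with GW7647, where 1071 of 14125 genes were. With DESeq2 54 were, where 886 of 14125 genes were, and with no filter 103, where 1507 of 21735 were. None of the genes named by rule reversed at the Dex or the GW7647 step. The genes named after their values were seen were not checked for this. At the depth of these libraries 47 of the 120 rest on fewer than 50 counts summed over the libraries with both drugs.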
